A study of Sus scrofa with 23 samples.

Results

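The comparison set pigs near the end of the finishing period, at 188 days post natum (dpn), against newborns at 1 dpn. The members were the samples whose label gives one of these ages, 6 at 188 dpn and 6 at 1 dpn, so 12 of the 23 samples of the series. The other 11 samples, 5 at 94 days post conception (dpc) and 6 at 28 dpn, entered the same fit and are used here only to place the changes in time. Each sample was the total RNA of 1 animal, measured on a porcine Affymetrix expression array.

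All 23 animals, at both ages compared, were offspring of German Landrace gilts that had been on a low protein diet during gestation, so no control diet stands beside them and the values compare ages only. For each age the offspring of 3 gilts were collected, and the labels do not name the dam, so some animals of an age shared a mother. The p-values treat all animals as independent and measure only the spread between these samples. Replicate numbers only name a sample. The labels of all samples give liver as the tissue, but the title of the series speaks of the muscle transcriptome. Signals of skeletal muscle genes were high on all arrays, and those of hepatocyte genes varied widely from array to array (values follow). The material is therefore called samples labelled liver and no tissue is assigned.

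In pigs, as in other mammals, birth moves the animal from a steady supply of glucose through the placenta to fat-rich milk, and weaning later brings a diet rich in starch. In skeletal muscle, embryonic and cardiac forms of the contractile proteins give way to adult forms during this time, and the fast fibres of modern meat pigs are known for high glycolytic capacity and large glycogen stores. In the liver, fetal growth factors and fetal plasma proteins are switched off after birth, while enzymes of detoxification appear.

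Signals are in the arrays' own linear units and are given as mean ± SD with n = 6 per age, or as the lowest, highest and median of the 6 samples. Differences are on the scale of log2(signal + 16), 188 dpn minus 1 dpn, with their standard error, and folds are these differences turned back to ratios. Because of the added 16, dim transcripts get smaller folds: with 1 or 64 in its place the folds of 7 and 12 of the 142 named genes moved by over 1.5 times, all of them dim at one of the ages (BCAT1, CASQ2, CYP3A29, DEFB1, MSTN, MYO5B, NR3C1, PNMT, PTN, TIE1, TMEM140 and TRAPPC12). Each adjusted p is from limma, corrected by the method of Benjamini and Hochberg across the tested probe sets, and a probe set or gene was called at an adjusted p under 0.05. Signals of different genes come from different probes and are not compared with each other.

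The 1 dpn arrays were less alike than those of 188 dpn, with a median pairwise correlation of 0.905 against 0.931. In 3 of the 6 newborn samples (replicates 2, 4 and 5) the GAPDH control, which compares probes at the 5' and the 3' end of a transcript, gave a ratio between 0.0868 and 0.148, while the remaining 20 arrays gave 1.09 to 1.29. These 3 are called the low-ratio arrays, and results are given with and without them. For the actin control, newborn arrays had a 5' to 3' ratio between 0.817 and 1.21 and 188 dpn arrays one between 1.29 and 1.42, without overlap, while the EF1A control ran the other way, 0.458 to 0.638 at 188 dpn against 0.759 to 0.824 on the other 3 newborn arrays and 0.101 to 0.125 on the low-ratio arrays. For actin, and for EF1A between 188 dpn and the other 3 newborn arrays, what the ratio reflects and the age of the animal cannot be told apart. The GAPDH ratio varied within the newborns, and on the other 3 it was 1.09 to 1.13, against 1.09 to 1.27 at 188 dpn. A second GAPDH control gave 0.841 to 0.918 on the other 3 newborn arrays, against 0.659 to 0.727 at 188 dpn. A second actin control gave 0.09 to 0.135 on them, against 0.167 to 0.207. Neither overlapped, so leaving out the low-ratio arrays does not make the ages alike in these ratios. The number of arrays limits the precision.

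At 188 dpn, 3266 of 23999 probe sets were higher and 3746 lower than at 1 dpn, which is 29.2% of all tested, with 13.6% higher and 15.6% lower. Of 6765 named genes 37.9% were called: 1129 were higher (16.7%) and 1438 lower (21.3%), and at least 2-fold differences were found in 601 and 719 of them. The median difference of all genes was -0.07. Without the 3 low-ratio arrays, 955 genes were higher and 1269 lower, and among probe sets 2241 of the higher and 2350 of the lower calls were shared with the fit of all arrays. In 598 genes with a higher call and 664 with a lower call the 6 samples of one age did not overlap the 6 of the other, and over all genes, called or not, 8.91% and 9.87% were separated in this way.

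The check of the tissue label came first. The summed signal of 14 measured markers of skeletal muscle fibres ran from 440000 to 804000 at 1 dpn and from 762000 to 985000 at 188 dpn, with a median percentile among all probe sets of 99.4 to 99.7 and of 99.8. Of these markers, 11 were called higher and 0 lower, while 16.7% of all genes were called higher and 21.3% lower. Without the low-ratio arrays the calls of TNNT1, ATP2A1, RYR1, PYGM and ENO3 were kept. Those of CKM, MYL1, TNNT3, TNNI1, TNNI2 and MYBPC1 were lost (adjusted p from 0.066 to 0.67). CKM, the creatine kinase of muscle, had signals from 39900 to 87000 with a median of 59000 at 1 dpn and from 73400 to 102000 with a median of 84500 at 188 dpn. The ages overlapped, and the difference of 0.56 ± 0.18 passed with adjusted p = 0.021 but not without the low-ratio arrays (adjusted p = 0.14), nor without 1 dpn replicate 2 alone (0.056), nor after quantile normalization (0.17).

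The 43 measured genes of hepatocyte proteins and enzymes summed to 8450 to 30100 at 1 dpn and to 8310 to 44600 at 188 dpn, with median percentiles of 24.4 to 69.4 and 44.6 to 79.4. Of them 2 were called higher and 2 lower (4.65% each, against 16.7% and 21.3% of all genes), and none was at 0. Without the low-ratio arrays 3 were higher and 1 lower. The median difference of the list was then 1.18 instead of 0.21, where that of all genes was -0.09. The higher part of the newborn range belonged to the low-ratio arrays, which had sums of 25600 to 30100 against 8450 to 14000 in the other 3. Albumin (ALB), the main plasma protein made by hepatocytes, had signals from 81.8 to 2910 with a median of 1130 at 1 dpn and from 744 to 9140 with a median of 2850 at 188 dpn. The samples overlapped, and the difference of 1.98 ± 0.94 did not pass (adjusted p = 0.12), whereas without the low-ratio arrays it was 3.44 with adjusted p = 0.028.

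Among the genes with the largest rises, several encode metabolic enzymes. A gene was counted among the largest rises or falls only if the ages did not overlap. For these genes the separation of the ages was therefore required by the choice. MSS51, a mitochondrial protein enriched in skeletal muscle, had signals from 135 to 251 with a median of 179 at 1 dpn and from 8960 to 16100 with a median of 10700 at 188 dpn. Every 188 dpn sample lay far above every newborn sample, and the fold of 56 was the largest among the genes named (difference 5.81 ± 0.24, adjusted p = 3.8e-14). At 28 dpn it was 3800 ± 1860, between the ages.

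GAMT, the methyltransferase of the last step of creatine synthesis, had signals from 7.99 to 1410 with a median of 231 at 1 dpn and from 9400 to 11700 with a median of 10000 at 188 dpn. The groups were fully apart, with a fold of 48.8 (difference 5.61 ± 0.55, adjusted p = 6.3e-08). Its size rests partly on the low-ratio arrays, since the fold was 19.2 without them and 31.6 without 1 dpn replicate 2 alone. GPD1, the cytosolic glycerol-3-phosphate dehydrogenase that links glycolysis to glycerolipids and to the shuttle of reducing equivalents, had signals from 28.2 to 8890 with a median of 1150 at 1 dpn and from 28000 to 35200 with a median of 31800 at 188 dpn. The ages did not overlap, and the fold of 35.2 (adjusted p = 3.5e-06) was 15.1 without the low-ratio arrays, 19.2 without 1 dpn replicate 2 and 55.5 without 1 dpn replicate 1.

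ALDH2, the mitochondrial aldehyde dehydrogenase, had signals from 489 to 2330 with a median of 956 at 1 dpn and from 24300 to 35100 with a median of 24800 at 188 dpn, a fold of 26.1 (difference 4.71 ± 0.27, adjusted p = 2e-11). CYP3A29, a porcine cytochrome P450 of drug and steroid oxidation, had signals from 3.93 to 66.1 with a median of 4.41 at 1 dpn and from 465 to 1020 with a median of 766 at 188 dpn. Both pairs of groups were fully separated. The CYP3A29 fold of 28.9 (adjusted p = 2.4e-07) depends on the added constant, being 88.6 with 1 and 10.4 with 64 in place of 16, because 5 of the 6 newborn signals were at most 5.35.

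At 188 dpn the array with the lowest ALB signal, replicate 2 with 744, also had the lowest hepatocyte sum (8310), below every newborn array. On the same array GAMT was 10300, GPD1 31800, ALDH2 33900 and CYP3A29 970. That these values lay above every newborn sample was required by the choice of these genes. The newborn array with the highest ALB signal, 1 dpn replicate 2 with 2910, had GAMT at 7.99 and GPD1 at 28.2. On that array CYP3A29, itself a member of the hepatocyte list, was at 66.1, the highest of its newborn signals. This newborn array had the lowest GAPDH ratio of all (0.0868), and without the low-ratio arrays the folds of GAMT and GPD1 were smaller. On it, what the ratio reflects and what goes with a high ALB signal cannot be told apart. These are single arrays, and the part of hepatocyte RNA in the rises was not tested.

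The remaining large rises were of mixed function. EGF, the epidermal growth factor precursor, rose 17.6-fold from 404 ± 314 to 5870 ± 782 (adjusted p = 3.9e-09). S100A1, a calcium-binding protein of muscle, rose 12.5-fold from 103 ± 46.8 to 1510 ± 819 (adjusted p = 4.2e-08), and PDZRN3, a ubiquitin ligase, 12.4-fold from 226 ± 166 to 2460 ± 425 (adjusted p = 1.3e-08). DEFB1, an antimicrobial peptide, had signals from 14.5 to 144 with a median of 24 at 1 dpn and from 283 to 3720 with a median of 520 at 188 dpn. These did not overlap, and the rise was 13.3-fold (adjusted p = 5.4e-06). The second probe set of DEFB1 was not called, and the fold of the first was 20 with an added 1 and 7.2 with an added 64. CMBL, a hydrolase, rose 12.2-fold and TMEM140 17.2-fold (adjusted p = 9.2e-08 and 3.6e-06), but 6.21-fold and 7.3-fold without the low-ratio arrays. The second CMBL probe set was also higher, and the mean of both gave 5.43-fold.

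The largest fall was that of cardiac actin. For the largest falls, too, the lack of overlap was required by the choice. ACTC1, the actin of heart that is also made in developing skeletal muscle, had signals from 40200 to 68700 with a median of 54400 at 1 dpn and from 726 to 1270 with a median of 922 at 188 dpn. No samples overlapped, and newborns were 54.3-fold higher (difference -5.76 ± 0.23, adjusted p = 3.8e-14). At 28 dpn the signals still ran from 17300 to 54100 with a median of 32900, and most of the fall lay between 28 and 188 dpn (difference -5.01 ± 0.23, adjusted p = 1.9e-12).

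Genes of the list of fetal growth and imprinting made up 3 of the 12 largest falls. PEG10, a paternally expressed gene derived from a retrotransposon, had signals from 1560 to 7220 with a median of 3810 at 1 dpn and from 47.3 to 163 with a median of 138 at 188 dpn. Newborns were 28.2-fold higher without overlap (adjusted p = 3.8e-10), and 28 dpn animals had 445 ± 182. Of the 2 other PEG10 probe sets, both dim, 1 was not called and 1 was called the other way. As the mean of all PEG10 probe sets newborns were 2.39-fold higher.

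IGF2, the fetal insulin-like growth factor, had signals from 3430 to 16100 with a median of 3950 at 1 dpn and from 309 to 464 with a median of 418 at 188 dpn. Again no samples overlapped, with newborns 13.2-fold higher (difference -3.72 ± 0.35, adjusted p = 3.4e-08). Of 12 other IGF2 probe sets 7 were lower as well and 5 were not called, and as the mean of all of them newborns were 2.98-fold higher. PLAGL1, an imprinted zinc finger regulator, was 2420 ± 1450 at 1 dpn and 167 ± 23.8 at 188 dpn, and newborns were 11.6-fold higher (adjusted p = 3.3e-09). PTN, the growth factor pleiotrophin, was 309 ± 202 against 21.4 ± 15.6 (newborns 7.99-fold higher, adjusted p = 1.6e-06). Both other PLAGL1 probe sets were called lower and the second of PTN was not called, and newborns were 4.99-fold and 3.55-fold higher as the mean of each gene's probe sets. Of the 22 measured genes of this list, 9 fell (40.9%, against 21.3% of all genes) and 2 rose, and without the low-ratio arrays 10 fell and 1 rose. A single rise was also left without 1 dpn replicate 2, 4 or 5 or 188 dpn replicate 1 or 5. GRB10, an imprinted adaptor that restrains growth signals, was among the 2 that rose, from 5090 ± 1380 to 8560 ± 1220 (difference 0.78 ± 0.21, adjusted p = 0.0054). IGF1, the postnatal partner of IGF2, had signals from 21.7 to 154 with a median of 65.6 at 1 dpn and from 36.2 to 210 with a median of 120 at 188 dpn, which overlapped, and its difference of 0.62 ± 0.35 did not pass (adjusted p = 0.2).

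**Figure D1:**
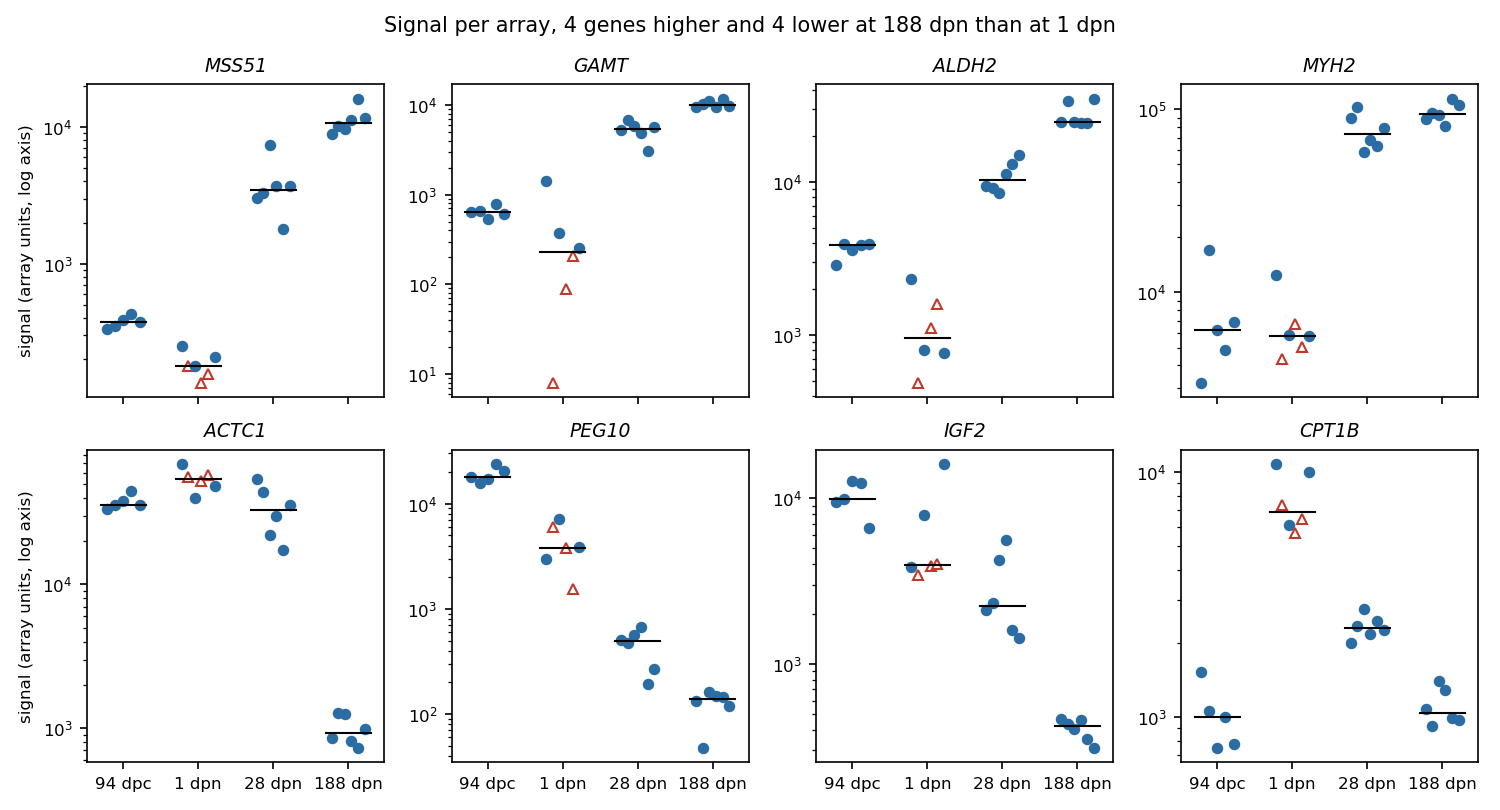
Signal of 8 genes on each array (log axis) at the 4 ages, with 1 point per animal, a black line at the median, and open red triangles for the 3 newborn arrays of low GAPDH ratio. MSS51, GAMT, ALDH2 and MYH2 lie higher in every 188 dpn sample than in any newborn, and ACTC1, PEG10, IGF2 and CPT1B lie lower. All but CPT1B are among the largest rises or falls, where a lack of overlap was a condition of the choice. ACTC1 is still at 33800 ± 13600 at 28 dpn, whereas MYH2 is already at 76900 ± 17100.

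The other large falls included CCND2, the cyclin of the G1 phase, with 1250 ± 350 at 1 dpn and 149 ± 77.2 at 188 dpn (newborns 9.15-fold higher, adjusted p = 9.2e-07). CASQ2, the cardiac and slow-fibre calsequestrin that stores calcium, went from 933 ± 877 to 71.4 ± 54, with newborns 8.75-fold higher and 18-fold without the low-ratio arrays (adjusted p = 4.8e-05 and 8.1e-06). MYO5B, a motor of vesicle transport, and THBS3, a matrix thrombospondin, were 12-fold and 9.65-fold higher in newborns (adjusted p = 1.6e-07 and 9.6e-08). SLC25A33, a mitochondrial nucleotide carrier, was 9-fold higher in newborns and TRAPPC12, a vesicle tethering subunit, 8.47-fold (adjusted p = 1.5e-07 and 1.2e-05). The other probe sets of THBS3 and SLC25A33 were also called lower, and as the mean of probe sets newborns were 4.38-fold and 4.14-fold higher. TRAPPC12 was dim at 188 dpn (30.6 ± 20.4), and its fold was 13.2 with an added 1 and 4.56 with an added 64. LOC396711, a gene known here only by its locus name, was 6890 ± 5040 at 1 dpn and 133 ± 39.6 at 188 dpn, 38.4-fold higher in newborns (adjusted p = 3.5e-10), but 7.75-fold as the mean of its probe sets, of which the second was not called. FNTA, a subunit of the protein prenyltransferases, was 10.6-fold higher in newborns by 1 probe set (adjusted p = 8e-11), while its 2 other probe sets were not called.

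The contractile apparatus shifted toward higher signals. Of 10 measured genes of the thick filament and M band, 7 were higher (70%, against 16.7% of all genes) and 0 lower at 188 dpn, with a median difference of 0.66 against -0.07 for all genes. Without the low-ratio arrays 5 were higher. MYH2, the myosin heavy chain of fast IIa fibres, had signals from 4310 to 12400 with a median of 5800 at 1 dpn and from 81100 to 114000 with a median of 93800 at 188 dpn. The groups were fully apart, as the choice of the largest rises required, and the fold was 15.2 (adjusted p = 1.2e-09). At 28 dpn it was already 76900 ± 17100, and 188 dpn did not pass against 28 dpn (difference 0.34 ± 0.29, adjusted p = 0.53). Myosin heavy chain genes are close in sequence, and the probes of one may pick up another.

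The M band proteins MYOM1 and MYOM2, which tie thick filaments together, rose from 6690 ± 1970 to 16700 ± 3210 and from 10500 ± 9210 to 36100 ± 4240 (differences 1.35 ± 0.19 and 2.16 ± 0.34, adjusted p = 7.3e-06 and 3.1e-05). For MYOM2 the difference was 1.46 without the low-ratio arrays. MYBPC1, the slow myosin-binding protein C, passed with all arrays (1.47 ± 0.35, adjusted p = 0.0024) and not without the low-ratio ones (0.50, adjusted p = 0.12).

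Of 26 measured genes of the thin filament and Z disc, 15 rose (57.7%, against 16.7% of all genes) and 3 fell (11.5%, against 21.3%). The median difference was 0.67, and without the low-ratio arrays 11 rose and 3 fell. TMOD4, which caps thin filaments in skeletal muscle, had signals from 2240 to 22500 with a median of 6050 at 1 dpn and from 35200 to 50500 with a median of 42600 at 188 dpn. Its samples were fully separated, and the 6.61-fold rise (adjusted p = 1.3e-06) was 3.86-fold without the low-ratio arrays. PDLIM3, a Z disc protein, was 13300 ± 6680 at 1 dpn, 9850 ± 2160 at 28 dpn and 37900 ± 8390 at 188 dpn (difference 1.65 ± 0.28, adjusted p = 6.9e-05). LMOD3, a nucleator of thin filaments, and NEB, the giant protein nebulin along them, rose 2.27-fold and 2.14-fold (adjusted p = 0.002 and 3.4e-05).

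The 3 falls of this list were ACTC1, described above, TPM3 and ACTN2. TPM3, the slow tropomyosin, went from 1900 ± 445 to 1020 ± 354 (adjusted p = 0.0025), and its 2 other probe sets were not called. ACTN2, the alpha-actinin of the Z disc, went from 28900 ± 3580 to 20100 ± 4570 (difference -0.54 ± 0.17, adjusted p = 0.016). The ACTN2 call was lost with only the 12 arrays of both ages (adjusted p = 0.071), with array weights (0.059) and with the GAPDH ratio as a covariate (0.053), while its second probe set fell by 1.66.

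Among 10 genes of excitation and calcium handling, 5 rose and 3 fell (50% and 30%, against 16.7% and 21.3% of all genes). Without the low-ratio arrays 5 rose and 2 fell. RYR1, the calcium release channel of skeletal muscle, had signals from 4000 to 9890 with a median of 5490 at 1 dpn and from 17700 to 27700 with a median of 24300 at 188 dpn, without overlap (difference 2.00 ± 0.19, adjusted p = 3.1e-08). The small inhibitors of the calcium pump, PLN and SLN, rose by 1.42 ± 0.29 and 0.74 ± 0.17, and HRC, a calcium-binding protein of the same store, by 0.71 ± 0.18 (adjusted p = 0.00066, 0.0016 and 0.0039). Beside CASQ2, ATP1B1 fell, a subunit of the sodium pump (-0.84 ± 0.19, adjusted p = 0.0018), but not without the low-ratio arrays (adjusted p = 0.057) nor as the mean of its probe sets (0.93).

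Of 14 regulators of myogenesis 5 were higher and 4 lower (35.7% and 28.6%, against 16.7% and 21.3% of all genes), or 5 and 3 without the low-ratio arrays. The early factors fell: MYF5 from 205 ± 92.8 to 44.6 ± 20.4 and MYOD1 from 1450 ± 641 to 414 ± 115 (differences -1.83 ± 0.30 and -1.68 ± 0.27, adjusted p = 6.5e-05 and 4.4e-05). MYF6, the factor that stays on in mature fibres, had signals from 417 to 2510 with a median of 849 at 1 dpn and from 4760 to 7320 with a median of 5480 at 188 dpn. These did not overlap, and the rise was 6.42-fold, or 3.66-fold without the low-ratio arrays (adjusted p = 1.4e-06 and 6.8e-05). It was late, since 28 dpn animals had 1060 ± 309 (188 against 28 dpn 2.45 ± 0.33, adjusted p = 2.6e-05). The second MYF6 probe set, dim at both ages, was not called.

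MEF2A and TEAD1, transcription factors of muscle genes, rose by 1.69 ± 0.17 and 1.89 ± 0.27 (adjusted p = 6.9e-08 and 1.1e-05). MSTN, the growth inhibitor myostatin, went from 34.9 ± 28.5 to 179 ± 81, and its second probe set rose as well. The MSTN difference was 1.98 ± 0.36 (adjusted p = 0.00019), 2.61 without the low-ratio arrays, 2.60 with an added 1 and 1.26 with an added 64. At 94 dpc MSTN had been 239 ± 108, and 188 dpn did not pass against 94 dpc (adjusted p = 0.41). MEF2D fell by 0.94 and FST, the myostatin antagonist follistatin, by 1.05 (adjusted p = 0.0015 and 0.0011). The FST call was lost without the low-ratio arrays (adjusted p = 0.051) and that of MEF2D with the GAPDH ratio as a covariate (0.069).

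**Figure D2:**
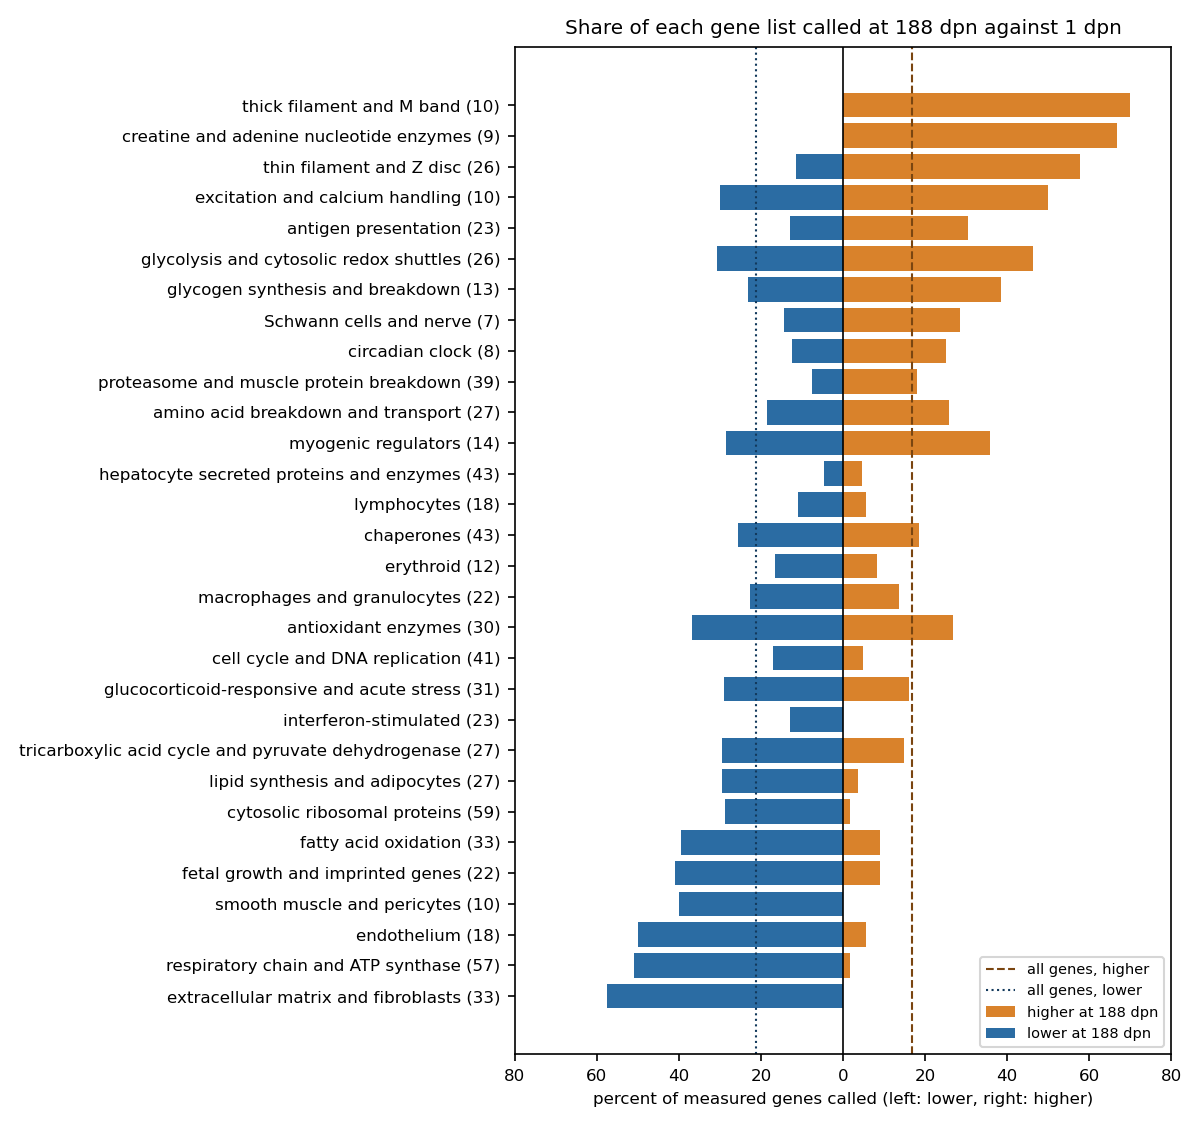
Percent of the measured genes of 30 lists called higher (orange, to the right) or lower (blue, to the left) at 188 dpn than at 1 dpn, with the number of measured genes in brackets and the shares of all genes, 16.7% and 21.3%, as broken lines. The thick filament and creatine lists have the largest shares of higher genes, and the extracellular matrix and respiratory chain lists the largest shares of lower genes.

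In glycolysis and the cytosolic redox shuttles, 12 of 26 genes rose and 8 fell (46.2% and 30.8%, where 16.7% and 21.3% of all genes did). The median difference was 0.73, but 0.29 without the low-ratio arrays, with 11 higher and 8 lower. LDHA, the subunit of lactate dehydrogenase of fast muscle, had signals from 2910 to 60600 with a median of 18000 at 1 dpn and from 74200 to 103000 with a median of 87500 at 188 dpn. The groups did not overlap (difference 2.48 ± 0.42, adjusted p = 7.7e-05). LDHB, the subunit of heart and slow muscle, went the other way, from 13900 to 41900 with a median of 23200 at 1 dpn and from 5970 to 13300 with a median of 9800 at 188 dpn, also without overlap (-1.26 ± 0.23, adjusted p = 0.0002).

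The phosphofructokinases were split in the same manner. PFKM, the muscle form of this control enzyme, rose 4.76-fold from 15100 ± 6970 to 62600 ± 5340, and PFKL, the liver form, fell from 1110 ± 662 to 260 ± 52.4 (adjusted p = 3.4e-06 and 2.4e-05). PFKL was 3.58-fold higher in newborns, and 5.4-fold without the low-ratio arrays. FBP2, the muscle fructose bisphosphatase, rose 8.1-fold (adjusted p = 0.00025), or 4.91-fold without the low-ratio arrays and 5.25-fold without 1 dpn replicate 2. MDH1, the cytosolic malate dehydrogenase, and SLC2A1, the basal glucose transporter, fell by 1.37 and 1.72 (adjusted p = 3.4e-05 and 0.00015).

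In glycogen metabolism 5 of 13 genes rose (38.5%, against 16.7% of all genes) and 3 fell (23.1%, near the 21.3% of all genes). The median difference was 0.03. The lower count was 1 without 1 dpn replicate 4 or without 188 dpn replicate 6. STBD1, which anchors glycogen to membranes, had signals from 343 to 2860 with a median of 829 at 1 dpn and from 7180 to 11400 with a median of 9690 at 188 dpn, a rise of 11.1-fold that is also seen in its second probe set (adjusted p = 1.6e-08). PGM1, which interconverts the glucose phosphates, and PHKB, a subunit of phosphorylase kinase, rose by 2.61 ± 0.26 and 2.53 ± 0.17 (adjusted p = 7.8e-08 and 1.7e-10). GYG1, the protein primer of glycogen, went from 6370 ± 2450 to 17600 ± 1990 (adjusted p = 1e-05), while PGM2 fell from 140 ± 8.45 to 61.7 ± 35.6 (adjusted p = 0.0012).

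Of 9 genes of creatine and adenine nucleotide enzymes, 6 rose (66.7%, against 16.7% of all genes) and 0 fell, and without the low-ratio arrays 5 rose. Besides GAMT and CKM these were AMPD1 and ADSSL1, the muscle enzymes of the purine nucleotide cycle, and the creatine transporter SLC6A8 among others. AMPD1 had signals from 3030 to 19000 with a median of 6100 at 1 dpn and from 34300 to 43600 with a median of 38000 at 188 dpn, without overlap (difference 2.44 ± 0.35, adjusted p = 8.7e-06). ADSSL1 rose by 2.94 ± 0.28 and SLC6A8 by 1.02 ± 0.22 (adjusted p = 4.1e-08 and 0.0011).

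Of 33 measured genes of fatty acid oxidation 13 fell (39.4%, against 21.3% of all genes) and 3 rose (9.09%, against 16.7%), with a median difference of -0.53, and without the low-ratio arrays 14 fell and 3 rose. CPT1B, the muscle carnitine palmitoyltransferase that admits long-chain fatty acids to mitochondria, had signals from 5670 to 10800 with a median of 6890 at 1 dpn and from 922 to 1400 with a median of 1040 at 188 dpn. Newborns were 6.73-fold higher without overlap (adjusted p = 5.3e-10). At 94 dpc the signal had been 1020 ± 316 and at 28 dpn it was 2340 ± 257, so the newborn samples held the highest values of the 4 ages.

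ACADVL and HADHA, enzymes of the mitochondrial oxidation of long chains, went from 20700 ± 5480 to 4540 ± 1180 and from 12400 ± 2030 to 3660 ± 647 (adjusted p = 3.3e-08 and 6e-08). The second ACADVL probe set was lower too, and as the mean of both newborns were 2.96-fold higher. FABP3, the fatty acid-binding protein of heart and muscle, had 46000 ± 19600 in newborns and 14300 ± 5970 at 188 dpn (difference -1.66 ± 0.29, adjusted p = 0.00012). The exceptions were UCP3, the muscle uncoupling protein, CRAT, the carnitine acetyltransferase, and the acyl-CoA synthetase ACSL3, which rose by 1.91 ± 0.36, 0.91 ± 0.18 and 1.05 ± 0.25 (adjusted p = 0.00028, 0.00038 and 0.0028). With the GAPDH ratio as a covariate the call of ACSL3 was lost (adjusted p = 0.089).

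Respiration was represented by the complexes of the mitochondrial chain with the ATP synthase. Of 57 measured genes 29 fell (50.9%, against 21.3% of all genes) and 1 rose, with a median difference of -0.53, and without the low-ratio arrays 40 fell and 1 rose. COX7A2, a subunit of cytochrome c oxidase, had signals from 19200 to 34000 with a median of 26800 at 1 dpn and from 4170 to 6530 with a median of 5080 at 188 dpn. The samples did not overlap and newborns were 5.01-fold higher (adjusted p = 4.3e-10). COX6A1, of the same complex, and NDUFC2, of complex I, fell by 1.53 and 1.20 (adjusted p = 3.9e-06 and 2.3e-05). ATP5I, of the ATP synthase, went from 15500 ± 3080 to 3910 ± 2450 (adjusted p = 0.0022). Its second, dim probe set was not called, and as the mean of both newborns were 2.26-fold higher. Of the 29 falls, 23 were smaller than 2-fold. ATP5J, another subunit of the ATP synthase, was the 1 gene that rose (0.79 ± 0.14, adjusted p = 9.4e-05), but not as the mean of its probe sets (0.24).

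The tricarboxylic acid cycle and pyruvate enzymes had 4 higher (14.8%) and 8 lower (29.6%) of 27, against 16.7% and 21.3% of all genes, with a median difference of -0.02. ME1, the cytosolic malic enzyme that supplies NADPH, had signals from 267 to 404 with a median of 349 at 1 dpn and from 2080 to 2590 with a median of 2450 at 188 dpn, a 6.82-fold rise without overlap (adjusted p = 2.1e-07). It was still 603 ± 311 at 28 dpn. The mitochondrial malic enzyme ME3 fell by 1.91, IDH3B of the cycle by 2.09 and MDH2, the mitochondrial malate dehydrogenase, by 0.82 (adjusted p = 1.7e-05, 2.3e-07 and 0.00087). PDK3, an inhibitory kinase of pyruvate dehydrogenase, PC, the pyruvate carboxylase, and SUCLA2, a succinyl-CoA ligase subunit, rose 4.18-fold, 2.21-fold and 2.14-fold (adjusted p = 3.7e-06, 0.00036 and 0.00036). For PDK3 the second probe set was not called and the mean of both gave 2.21-fold. ME2 passed with all arrays (-0.86 ± 0.21, adjusted p = 0.003) and not without the low-ratio arrays (adjusted p = 0.11).

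**Figure D3:**
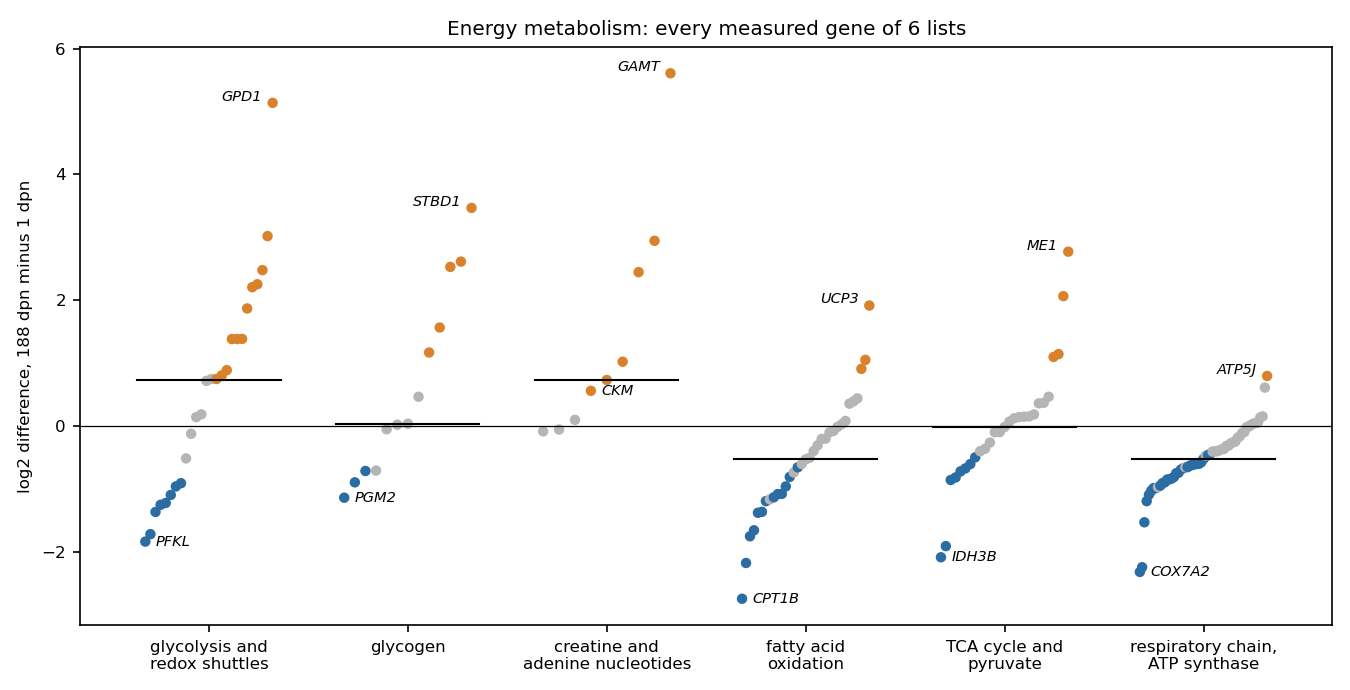
Log2 difference, 188 dpn minus 1 dpn, of every measured gene of 6 lists of energy metabolism (1 point per gene, orange called higher, blue called lower, grey not called, black line at the list's median). The medians of glycolysis (0.73) and creatine enzymes (0.73) lie above 0, and those of fatty acid oxidation (-0.53) and the respiratory chain (-0.53) below. Without the low-ratio arrays, which the plot includes, the glycolysis median is 0.29.

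Of 27 genes of amino acid breakdown and transport 7 were higher (25.9%, against 16.7% of all genes) and 5 lower (18.5%, against 21.3%), and without the low-ratio arrays 5 and 6. Of the enzymes that break down branched-chain amino acids in mitochondria, BCAT2, the aminotransferase, rose 5.22-fold and BCKDHB, of the following dehydrogenase, 6.52-fold (adjusted p = 1.3e-05 and 8.3e-08). For BCAT2 the fold was 2.91 without the low-ratio arrays. The cytosolic aminotransferase BCAT1 went from 320 ± 99.8 to 55.1 ± 29.7 (difference -2.32 ± 0.33, adjusted p = 9.4e-06). MUT, the methylmalonyl-CoA mutase that takes up the end products of valine and isoleucine, rose by 1.62 ± 0.22 (adjusted p = 6.1e-06). GOT1, the cytosolic aspartate aminotransferase, fell by 1.23 (adjusted p = 0.0019). The polyamine enzymes ODC1 and SMOX fell by 0.93 and 0.92 (adjusted p = 0.0034 and 0.00042), the first not with the GAPDH covariate (0.066) and the second not as the mean of its probe sets (0.71).

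In the extracellular matrix list 19 of 33 genes fell (57.6%, against 21.3% of all genes) and 0 rose (against 16.7%). The median difference was -0.84, against -0.07 for all genes. Without the low-ratio arrays 21 fell and 1 rose. Newborn arrays had summed signals of its members between 109000 and 158000, and 188 dpn arrays between 51400 and 74000, with no overlap, and their median percentiles were 83 to 93.6 and 79.4 to 82.3. MFAP5, a protein of elastic microfibrils, had signals from 3660 to 8190 with a median of 6100 at 1 dpn and from 644 to 1500 with a median of 849 at 188 dpn (newborns 6.6-fold higher, adjusted p = 5.9e-09). TIMP1, an inhibitor of matrix proteases, and ASPN, a small proteoglycan, fell by 2.21 and 1.99 (adjusted p = 2e-05 and 0.00028). THBS1 fell by 2.16 in its brightest probe set (adjusted p = 0.00024), and its 4 other probe sets were not called. In bulk samples such as these, fewer cells of a type and less RNA per cell cannot be told apart.

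Of 18 endothelial genes 9 were lower (50%, against 21.3% of all genes) and 1 higher. Their summed signal was 26100 to 40800 in newborns and 13300 to 16300 at 188 dpn, while their median percentile among all probe sets overlapped, 69 to 79.5 and 71.3 to 75.3. Without the low-ratio arrays 6 were lower and 1 higher. Within the newborns the low-ratio arrays held the higher sums, 37700 to 40800 against 26100 to 30800. AQP1, the water channel of capillaries, had signals from 8300 to 20400 with a median of 13600 at 1 dpn and from 2530 to 3720 with a median of 2770 at 188 dpn (difference -2.20 ± 0.20, adjusted p = 2.3e-08), and LYVE1, a marker of lymphatic vessels, fell by 2.07 (adjusted p = 2.7e-05). The second probe set of AQP1 and both others of LYVE1 were not called, and as the mean of probe sets newborns were 2.82-fold and 1.84-fold higher. TIE1, a receptor of endothelial cells, was the 1 that rose, from 41 ± 28.9 to 145 ± 41.9 (adjusted p = 0.00019). CAV1, of caveolae, fell by 1.19 (adjusted p = 0.00013) but not as the mean of its probe sets (0.29), and the fall of ERG (adjusted p = 0.0039) was lost without the low-ratio arrays (adjusted p = 0.16).

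The counts of the remaining lists stand beside 16.7% of all genes higher and 21.3% lower. Of 10 measured genes of smooth muscle and pericytes 0 rose and 4 fell (40%), or 0 and 5 without the low-ratio arrays. Their sums were 42900 to 53000 in newborns and 40200 to 43600 at 188 dpn. Macrophage and granulocyte genes had 3 of 22 higher and 5 lower (13.6% and 22.7%), with sums of 2470 to 8980 and 3580 to 5970. The lower count was 2 without 1 dpn replicate 6 or 188 dpn replicate 4, and 3 without 1 dpn replicate 1 or 188 dpn replicate 1 or 2. Without the low-ratio arrays 1 of these genes was higher and 7 were lower. Lymphocyte genes had 1 of 18 higher and 2 lower (5.56% and 11.1%), and erythroid genes 1 of 12 and 2 (8.33% and 16.7%). Schwann cell and nerve genes had 2 of 7 and 1 (28.6% and 14.3%), and interferon-stimulated genes 0 of 23 and 3 (0% and 13%). Lipid synthesis and adipocyte genes had 1 of 27 higher and 8 lower (3.7% and 29.6%), or 0 and 5 without the low-ratio arrays. The 4 measured adipocyte markers summed to 4500 to 16200 in newborns and 3250 to 5110 at 188 dpn. The circadian clock had 2 of 8 higher and 1 lower (25% and 12.5%). Without 1 dpn replicate 6, 2 interferon-stimulated genes were higher, and leaving out any 1 sample moved the other counts of these lists, macrophages aside, by at most 1. The part of these cell types in the results for other genes was not tested.

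The counts of the antigen presentation list depended on the low-ratio arrays. With all arrays 7 of 23 genes were higher and 3 lower (30.4% and 13%, against 16.7% and 21.3% of all genes). Without the low-ratio arrays 0 were higher and 3 lower. The higher count was 2 without 1 dpn replicate 2, 2 without replicate 4, 3 without replicate 5 and 4 without 188 dpn replicate 5. SLA-DQA1, a class II antigen of the pig, had signals from 156 to 1260 with a median of 336 at 1 dpn and from 670 to 1490 with a median of 1080 at 188 dpn, and its difference of 1.32 ± 0.40 (adjusted p = 0.015) was 0.44 without the low-ratio arrays (adjusted p = 0.47). CIITA, the regulator of class II genes, was lower, 22.6 ± 5.95 against 81.3 ± 53.8 (adjusted p = 0.017). The class I gene SLA-8 and B2M, the light chain of class I, fell by 0.86 and 0.43 (adjusted p = 0.014 and 0.016) and did not pass without the low-ratio arrays (adjusted p = 0.18 and 0.067). Of 8 other B2M probe sets 3 were called the other way, 2 the same way and 3 not. The SLA genes are close copies of each other, so a probe set may report several.

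**Figure D4:**
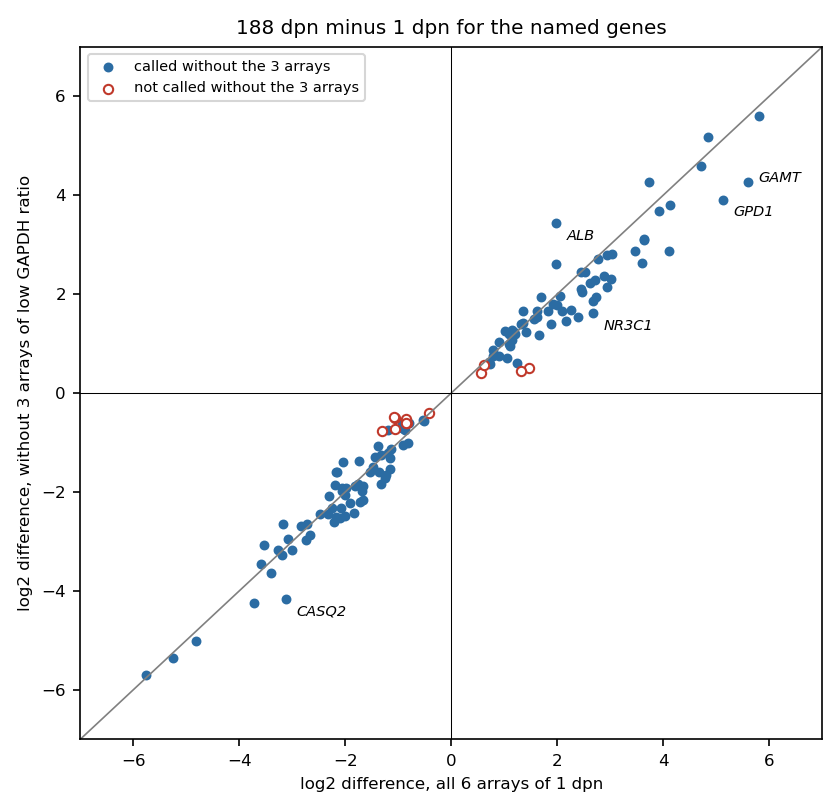
Log2 difference, 188 dpn minus 1 dpn, of the 142 named genes with all 6 newborn arrays (horizontal axis) and without the 3 newborn arrays of low GAPDH ratio (vertical axis), with the line of equal values. Open circles are genes not called without these arrays. GAMT and GPD1 lie below the line, at 4.26 and 3.91 instead of 5.61 and 5.14, and CASQ2 is at -4.17 instead of -3.13.

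Of 59 cytosolic ribosomal protein genes 17 fell (28.8%, against 21.3% of all genes) and 1 rose, with a median difference of -0.27, and without the low-ratio arrays 16 fell and 0 rose. The higher count was 4 without 1 dpn replicate 1, 2 without replicate 3, and 0 without replicate 2, 4 or 5 or 188 dpn replicate 5. RPL3 had signals from 21500 to 29400 with a median of 25900 at 1 dpn and from 3930 to 5210 with a median of 4490 at 188 dpn, without overlap (newborns 5.58-fold higher, adjusted p = 1.8e-11). RPLP2 and RPS27 fell by 1.32 and 0.88 (adjusted p = 0.00013 and 7.5e-05), and the fall of RPL37 (adjusted p = 0.0023) did not hold without the low-ratio arrays (adjusted p = 0.14). Ribosomal protein genes have many processed copies, and their probe sets may report more than 1.

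Among 39 genes of the proteasome and muscle protein breakdown 7 were higher (17.9%, near the 16.7% of all genes) and 3 lower (7.69%). Without the low-ratio arrays 7 were higher and 8 lower, and the higher count was 11 without 1 dpn replicate 3. CAPN3, the calpain of skeletal muscle, rose 7.63-fold from 1030 ± 576 to 6840 ± 1090 (adjusted p = 1.4e-07), or 4.44-fold without the low-ratio arrays, and its second probe set was not called. The proteasome subunits PSMA3 and PSMD6 rose by 1.20 ± 0.18 and 1.11 ± 0.17 (adjusted p = 2.3e-05 and 3.1e-05). In the same complex PSMD10, PSMA7 and PSMD13 fell by 1.47, 0.80 and 0.51 (adjusted p = 5.3e-07, 0.00018 and 0.012).

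Chaperones had 8 of 43 higher and 11 lower (18.6% and 25.6%, near the shares of all genes), and 6 and 13 without the low-ratio arrays. HSPA6, a heat-inducible member of the Hsp70 family, rose from 86.9 ± 52.4 to 531 ± 293, and HSPH1, its exchange factor, from 389 ± 76 to 1020 ± 315 (adjusted p = 8.3e-05 and 0.00017). The co-chaperones DNAJB9, of the endoplasmic reticulum, and DNAJA2 rose by 1.35 ± 0.23 and 1.14 ± 0.17 (adjusted p = 7.8e-05 and 1.2e-05). The small heat shock protein HSPB7 of muscle and PDIA4, a disulfide isomerase, fell by 1.45 and 1.38 (adjusted p = 0.00035 and 6.6e-05). Both other PDIA4 probe sets were not called, and the mean fell by 0.53. HSPB6 fell by 1.32 (adjusted p = 0.00016) but not as the mean of its probe sets (0.55), and HSPD1, the mitochondrial chaperonin, by 1.06 (adjusted p = 0.0059) but not without the low-ratio arrays (adjusted p = 0.17).

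Antioxidant enzymes had 8 of 30 higher and 11 lower (26.7% and 36.7%, against 16.7% and 21.3% of all genes), or 7 and 12 without the low-ratio arrays. SELENOW, a selenoprotein of muscle, had signals from 697 to 4060 with a median of 759 at 1 dpn and from 6970 to 8440 with a median of 7910 at 188 dpn, a 7.37-fold rise (adjusted p = 1.1e-07). The peroxiredoxins PRDX6 and PRDX3 rose by 1.82 ± 0.25 and 1.25 ± 0.25 (adjusted p = 5e-06 and 0.0004), the second by 0.61 without the low-ratio arrays. The glutathione peroxidases were split, since GPX3, the plasma form, rose by 2.09 ± 0.37 while GPX2 and GPX7 fell, 4-fold and 4.02-fold higher in newborns (adjusted p = 0.00014, 0.0081 and 8.8e-09). The glutathione transferases GSTM3 and GSTA4 fell by 2.09 and 1.66 (adjusted p = 1.1e-05 and 2.4e-05).

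Of 31 glucocorticoid-responsive and acute stress genes 5 rose and 9 fell (16.1% and 29%, against 16.7% and 21.3% of all genes), and the higher count was 3 without 1 dpn replicate 3 or 5. ATF4, a transcription factor of the amino acid and stress response, had signals from 5590 to 12800 with a median of 8440 at 1 dpn and from 61900 to 74000 with a median of 68400 at 188 dpn. These did not overlap, and the rise was 8.15-fold (adjusted p = 2e-11), but the second ATF4 probe set, much dimmer, was 261 ± 139 at 1 dpn and 294 ± 111 at 188 dpn and was not called. NR3C1, the glucocorticoid receptor, rose by 2.68 ± 0.50 in its brightest probe set (adjusted p = 0.00025) and by 1.61 without the low-ratio arrays. None of its 3 other probe sets was called, and the mean of all 4 gave adjusted p = 0.15. In the brightest probe set NR3C1 had been 614 ± 227 at 94 dpc, and 188 dpn did not pass against 94 dpc (adjusted p = 0.41). CDKN1A, an inhibitor of the cell cycle, and CEBPD, an acute-phase transcription factor, went from 9930 ± 2140 to 2400 ± 673 and from 9550 ± 4840 to 2310 ± 1280 (adjusted p = 3.5e-06 and 0.0004). For CEBPD the difference of -2.04 was -1.40 without the low-ratio arrays. PNMT, the enzyme that makes adrenaline, was 327 ± 316 at 1 dpn and 26 ± 16.3 at 188 dpn (adjusted p = 2.4e-05). AGT, angiotensinogen, fell by 2.18 (adjusted p = 0.0012), but not with the GAPDH covariate (0.052).

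Of 41 cell cycle genes 2 were higher (4.88%) and 7 lower (17.1%), neither above the share of all genes, with a median difference of -0.12. The higher count was 6 without 1 dpn replicate 1 and 1 without 1 dpn replicate 4 or 5 or without the low-ratio arrays. Besides CCND2, CDKN3, a phosphatase of cyclin-dependent kinases, had signals from 401 to 3380 with a median of 1420 at 1 dpn and from 106 to 286 with a median of 173 at 188 dpn (difference -2.84 ± 0.37, adjusted p = 3.1e-06). The chromatin proteins HMGB2 and HMGN2 fell by 1.75 and 1.15 (adjusted p = 4.5e-05 and 1.1e-06). MAD2L1, of the spindle checkpoint, rose from 166 ± 54.6 to 313 ± 34.1 (adjusted p = 0.0016). At 94 dpc it had been 675 ± 186, above 188 dpn (188 minus 94 dpc -1.03 ± 0.22, adjusted p = 0.00052).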

How the data were processed

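Total RNA of each sample was turned into biotin-labelled cRNA from 0.5 ug and hybridised to a porcine array, per the labels' protocols. The authors deposited intensities on a linear scale for 24123 probe sets of each array. Per the submitters' processing notes GCOS 1.1.1 was used, in a role they do not state. How probes were summarised and corrected for background is not given in the sources used here, and the values come without detection calls. The 2% trimmed mean lay between 500.1 and 500.2 on every array, so the values had been scaled to one target, and a shift of many transcripts on 1 array would move all others on it. No 2 arrays held identical values.

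Tests ran on the 23999 probe sets that are not among the 124 controls of the manufacturer. Since the table was scaled already, log2(signal + 16) was used as it stood. In limma 3.58.1 (R 4.3.3), lmFit and eBayes fitted 1 mean per age to the 23 arrays together. The contrast 188 dpn minus 1 dpn was tested two-sided, with p-values adjusted by Benjamini and Hochberg's method across these probe sets. Probe sets were named from GEO's platform annotation: 10069 had 1 gene symbol, 198 several and 13732 none. For a gene with several, the probe set of the highest mean across arrays was taken, and 78 genes had probe sets called in both directions. Tables were made with pandas 2.3.3 and figures with matplotlib 3.10.9 in Python 3.11.15. The fit was checked on simulated data.

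Described were the 12 genes that rose most and the 12 that fell most, among those called, without overlap between the ages, with a mean in the higher age above the median of all probe sets and the same call without the low-ratio arrays. Of 21 of the 30 gene lists, up to 4 called members in each direction were described, less 12 of 136 whose call was lost when 1 sample was left out. The other 9 lists are given as counts, and ALB, IGF1, IGF2 and CKM were added. The comparison, its members and the lists were chosen with earlier results of these data known. No list was tested as a set.

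The alternatives were quantile normalization, centring on the median, added constants of 1 and 64, leaving out dim probe sets, the 12 arrays of both ages alone, array weights, the trend and robust options of eBayes, leaving out the low-ratio arrays, the GAPDH ratio as a covariate, the mean of a gene's probe sets, and leaving out each sample of both ages in turn. No sequences are shown.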

Additional observations from a re-analysis of the deposited data

Results flagged for a closer look

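The signals of the named genes at each age were searched for single samples far from the other 5, by Dixon's ratio of the gap to the nearest sample over the whole range, at its 95% critical value. Of 284 groups examined 23 held such a sample, 11 at 1 dpn and 12 at 188 dpn, and chance alone gives about 1 in 20.

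At 1 dpn, 2 genes stood out on replicate 2 by a high signal, CYP3A29 with 66.1 (next 5.35) and HMGB2 with 2510 (next 915), and PFKM by a low one, 3500 (next 12700). On replicate 4, HSPA6 was low at 4.36 (next 65) and PLN at 384 (next 705), and on replicate 5 LYVE1 was high at 499 (next 314). These 3 arrays are the low-ratio ones. On replicate 1, HSPB7 was low at 3070 (next 6860), while PGM1 was high at 33900 (next 11300) and SELENOW at 4060 (next 1140). On replicate 3, PSMD6 was high at 4630 (next 2610) and RPS27 low at 30900 (next 45100).

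At 188 dpn, replicate 1 was high for COX6A1 with 3560 (next 1960), GPX3 with 5370 (next 1440), HMGB2 with 365 (next 235) and TPM3 with 1730 (next 1010). Replicate 5 was low for CCND2 with 6.87 (next 131), ME1 with 2080 (next 2430), MUT with 311 (next 414) and PSMA3 with 8580 (next 11200), and high for RPLP2 with 19800 (next 14400). Replicate 2 was low for PEG10 with 47.3 (next 118), replicate 4 for LYVE1 with 3.99 (next 68.5) and replicate 6 for PFKL with 160 (next 256). Leaving out any 1 of these samples kept the call of each of these genes, which for all but CYP3A29 was a condition of being named.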

How the results depend on the processing

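Of the 142 named genes, 118 kept their direction and their side of the threshold in all 23 alternatives, and 24 did not in at least 1. Some of these alternatives were passed by the choice of genes, so the count does not measure how stable calls are in general. List members were named only if their call held without any 1 sample. The 12 largest rises and 12 largest falls had to be called without the low-ratio arrays. None changed its sign. The GAPDH ratio as a covariate ended 16 calls and leaving out the low-ratio arrays 11, each of the 2 also letting ALB pass, the mean of a gene's probe sets ended 10, the 12 arrays alone 3, and quantile normalization, array weights and leaving out 1 dpn replicate 2 each 1. Folds moved by over 1.5 times in 20 named genes without the low-ratio arrays, in 27 with the covariate and in 27 with the mean of a gene's probe sets. Of 85 other probe sets of 49 called genes, 35 were called the same way, 46 not and 4 the other way. The causes were not tested.

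With 1 sample left out at a time, 2929 to 3398 probe sets were higher and 3380 to 3859 lower, 1008 to 1179 genes were higher and 1317 to 1476 lower, and the genes of all lists gave 107 to 136 higher and 185 to 203 lower. No count over all probe sets or genes moved by over 1.5 times in any alternative. Without the low-ratio arrays 10 of the probe sets called with all arrays had the opposite sign. No paired analysis was possible because the labels carry no replicate numbers shared between the ages. The lack of detection calls limits what can be said of dim transcripts, and 3 of 6 newborn arrays with a low GAPDH ratio limit every comparison with that age.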
